A study of Mus musculus with 4 samples.

Results

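A set of 9 genes known chiefly from myeloid cells and haematopoietic precursors were followed in mouse T cells, out of 31053 genes measured. The list held the CD200 receptor genes Cd200r1, Cd200r2 and Cd200r4, the adaptor genes Fcer1g, Tyrobp and Lat2, the oxidase subunit gene Ncf1 and the transcription factor genes Lyl1 and Heyl. The 9 genes were chosen by their levels in these same cells, namely the CPM and detection of each gene in cells with and without transcripts of Itgae, the integrin αE subunit (CD103), and of Cd8a, in each library. The differences between those classes are therefore given as a description without a test, and tests are given only for splits by other genes. The cells were TS1 Tg T cells labelled as CD4 T cells of the strain BALB/c RAG2-/- TS1 Tg, taken from mice with graft-versus-host disease (GVHD) 4 weeks after transplantation. They were sorted from spleen, colon, skin and the intraepithelial and lamina propria layers of the small intestine, tagged by tissue, pooled over these 5 compartments and sequenced with droplet 3′ chemistry as 2 expression libraries, called replicates 1 and 2. All cells shared the transgene, the Rag2 deletion, the host disease and the time point, and no untreated group was analysed here. The 2 hashtag libraries held no hashtag feature in the files used, so no cell could be given a tissue.

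CD200R1 is an inhibitory receptor for CD200 that signals through DOK adaptors rather than through an ITAM, the tyrosine motif of activating receptors. CD200R4 belongs to the activating branch of the same family and is known to pair with DAP12, the ITAM adaptor encoded by Tyrobp, while Fcer1g encodes the FcRγ chain, the matching adaptor of Fc receptors. Lat2 encodes a LAT-like scaffold of mast cells, B cells and myeloid cells, Ncf1 encodes p47phox, the cytosolic organiser of the phagocyte NADPH oxidase, Lyl1 encodes a bHLH factor of blood precursors, and Heyl encodes a bHLH repressor of the Hey family downstream of Notch. Within the gut, CD103 holds T cells to E-cadherin on epithelium, and CD4 T cells that enter the epithelium are known to take up CD8αα.

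The cell rule kept 16382 of 19020 cells in replicate 1 and 8128 of 15898 in replicate 2, with median depths of 2617 and 3415.5 unique molecular identifiers (UMIs, 1 per captured transcript). It asked for at least 1 Cd3e, Cd3d or Cd3g UMI and for none of S100a8, Lyz2 or H2-Aa. The second condition removed 7729 cells of replicate 2 and 2590 of replicate 1. Every cell was then thinned at random to 1500 UMIs, which left 13074 and 7425 cells, and a cell counted as detected for a gene with at least 1 UMI after thinning. Levels are given as CPM, the UMIs of a gene scaled by all UMIs of the summed cells of a class. Of the kept barcodes, 599 occurred in both libraries. All 9 listed T cell genes were detected in the summed cells. Cd3e, Cd3d and Cd3g are among them, and the rule asked for at least 1 UMI of these. Detection in a sum is a low bar, since 8 of 9 listed neutrophil genes were detected too. The CD4 label was not plain in the RNA, since 3282 of 13074 and 2000 of 7425 cells had a Cd4 UMI at this depth while 4251 and 2187 had a Cd8a UMI.

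The members lie on 6 chromosomes of mm10 in the GENCODE M21 annotation, where 9 of 9 were matched by gene identifier. Cd200r1 (chr16:44765736-44794978), Cd200r4 (chr16:44811733-44839150) and Cd200r2 (chr16:44867097-44915840) stand side by side on the plus strand, with the basophil gene Cd200r3 next to them. None of the 60-base stretches in the last 600 bases of their transcripts was shared between these 4 genes, so 3′ reads of one could be told from those of the others. Fcer1g (chr1:171229572-171234365), Lat2 (chr5:134600022-134615025) and Ncf1 (chr5:134220053-134229625) lie on the minus strand, and Tyrobp (chr7:30413760-30417585), Lyl1 (chr8:84701457-84704715) and Heyl (chr4:123233556-123249875) on the plus strand. Lat2, Ncf1 and Lyl1 each overlap a gene on the opposite strand, Rfc2, Gtf2ird2 and Nfix respectively, and whether the deposited counts used strand is not given in the sources used here.

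Promoter windows of 300 bases, from 250 before to 50 after the RefSeq start in GRCm38.p6, were found for 5 of the 9 members. They are shown for Cd200r2, Cd200r4 and Lyl1, which were high in Itgae-detected cells, and for Fcer1g, which was not. Each window is written 5′ to 3′ on the gene's strand, with capitals marking matches on either strand to TGTGGT (Runx), GAGGAA (Ets factors of the PU.1 type), TGANTCA (AP-1) and TGGGAA (RBPJ).
Cd200r2 (chr16:44866847-44867146, plus strand): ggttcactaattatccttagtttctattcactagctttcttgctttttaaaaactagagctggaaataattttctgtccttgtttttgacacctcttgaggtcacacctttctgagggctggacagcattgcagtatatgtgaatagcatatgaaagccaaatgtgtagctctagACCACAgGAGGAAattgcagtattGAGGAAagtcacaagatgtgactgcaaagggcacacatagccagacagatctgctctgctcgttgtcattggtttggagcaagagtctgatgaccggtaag
Cd200r4 (chr16:44820478-44820777, plus strand): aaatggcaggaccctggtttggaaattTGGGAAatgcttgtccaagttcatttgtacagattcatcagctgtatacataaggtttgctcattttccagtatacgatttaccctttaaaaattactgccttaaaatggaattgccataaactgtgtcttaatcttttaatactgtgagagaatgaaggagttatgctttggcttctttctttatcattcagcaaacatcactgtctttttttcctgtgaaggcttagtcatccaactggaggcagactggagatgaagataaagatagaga
Lyl1 (chr8:84701207-84701506, plus strand): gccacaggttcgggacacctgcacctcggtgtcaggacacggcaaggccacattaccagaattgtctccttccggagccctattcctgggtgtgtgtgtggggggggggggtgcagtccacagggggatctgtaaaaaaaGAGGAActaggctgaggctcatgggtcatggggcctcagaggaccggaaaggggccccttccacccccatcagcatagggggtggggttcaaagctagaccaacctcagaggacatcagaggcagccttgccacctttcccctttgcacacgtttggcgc
Fcer1g (chr1:171234300-171234599, minus strand): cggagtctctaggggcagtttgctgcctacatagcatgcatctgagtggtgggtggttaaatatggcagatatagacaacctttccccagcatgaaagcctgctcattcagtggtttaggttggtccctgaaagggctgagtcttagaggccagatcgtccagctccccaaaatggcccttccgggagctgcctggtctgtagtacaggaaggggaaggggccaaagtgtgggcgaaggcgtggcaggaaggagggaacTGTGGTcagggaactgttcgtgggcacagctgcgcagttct
The Cd200r2 window held 1 Runx and 2 Ets matches within 30 bases of each other without overlap, the Lyl1 window 1 Ets match, the Cd200r4 window 1 RBPJ match and the Fcer1g window 1 Runx match. The RefSeq start of Cd200r4 used here lies inside the GENCODE gene. The Ncf1 window held none of the 4 motifs. Of 32851 promoter windows of the same length, 16.8% held the Runx motif, 28.3% the Ets motif, 7.81% the AP-1 motif and 25.6% the RBPJ motif, so these matches are common. The letters are shown as a description of the windows.

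The CD200 receptor genes were higher in Itgae-detected cells of both libraries, which numbered 3314 of 13074 and 1960 of 7425. Cd200r4 was at 171 CPM in Itgae-detected and 59.1 CPM in undetected cells of replicate 1, and at 188 and 55.3 CPM in replicate 2, folds of 2.90 and 3.41. Cd200r1 stood at 118 against 48.8 CPM and at 129 against 57.5 CPM. Cd200r2 stood at 30.2 against 8.81 CPM and at 33.7 against 7.20 CPM. For all 3 receptor genes the lower of the 2 detected values lay well above the higher of the undetected ones. A Cd200r4 UMI was found in 21.1% of Itgae-detected cells (95% exact binomial interval 19.7 to 22.5%) and 7.83% (7.30 to 8.38%) of undetected cells in replicate 1, and in 23.0% (21.1 to 24.9%) and 7.06% (6.40 to 7.77%) in replicate 2. In barcodes marked by epithelial genes, a Cd200r4 UMI occurred in 3 of 63 (4.76%) and 0 of 24, the latter allowing up to 12.5%. T cell RNA was present in many of these barcodes, since 34 of 63 and 8 of 24 held a Cd3e UMI. They are therefore no floor free of T cells. The median depths before thinning were 3407 and 29806 UMIs there, against 3263 UMIs in Itgae-detected and 2989 UMIs in undetected T cells of replicate 1. Intervals and limits of this kind cover counting error only.

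Of the adaptor genes, Lat2 followed the receptors and the ITAM adaptors did not. Lat2 was at 126 CPM in Itgae-detected against 42.7 CPM in undetected cells of replicate 1 and at 119 against 34.5 CPM in replicate 2. Fcer1g was at 7.04 against 7.99 CPM and at 3.74 against 11.1 CPM. Tyrobp was at 6.84 against 13.5 CPM and at 3.06 against 12.6 CPM. Both ITAM adaptors were thus near the level of a handful of UMIs, 35 and 11 for Fcer1g over all Itgae-detected cells, and lower there than in undetected cells, although the intervals of the shares overlapped for Fcer1g in both libraries (0.346 to 0.894% against 0.696 to 1.08% of cells in replicate 1, and 0.280 to 1.00% against 0.887 to 1.47% in replicate 2) and for Tyrobp in replicate 1 (0.346 to 0.894% against 0.825 to 1.23%). A Fcer1g UMI was found in 19 of 3314 and 11 of 1960 Itgae-detected cells. This contrast chose the members, so no verdict on the set is drawn from it. The 7 genes other than Fcer1g and Tyrobp are described as a group below.

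The oxidase subunit gene and both transcription factor genes had the same order as the receptors. Ncf1 was at 66.4 against 18.1 CPM in replicate 1 and at 68.7 against 19.5 CPM in replicate 2. Lyl1 was at 58.1 against 20.97 CPM and at 67.7 against 18.4 CPM. Heyl was at 37.4 against 12.6 CPM and at 42.5 against 9.76 CPM. The 7 genes were higher in Itgae-detected cells with no overlap between libraries, an order that 24.4% of all 10547 genes tested in this split had, and the 2 ITAM adaptors were lower, an order that 27.5% had. The rule used this contrast, so nothing is read from these counts. The folds of the 7 genes lay between 2.24 (Cd200r1 in replicate 2) and 4.68 (Cd200r2 in replicate 2), and those of Fcer1g were 0.881 and 0.337. Without thinning the folds were larger, at 4.38 and 5.01 for Cd200r4, while Itgae-detected cells were then also deeper, with medians of 3330.5 and 4101.5 UMIs against 2280 and 3043 UMIs.

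**Figure D1:**
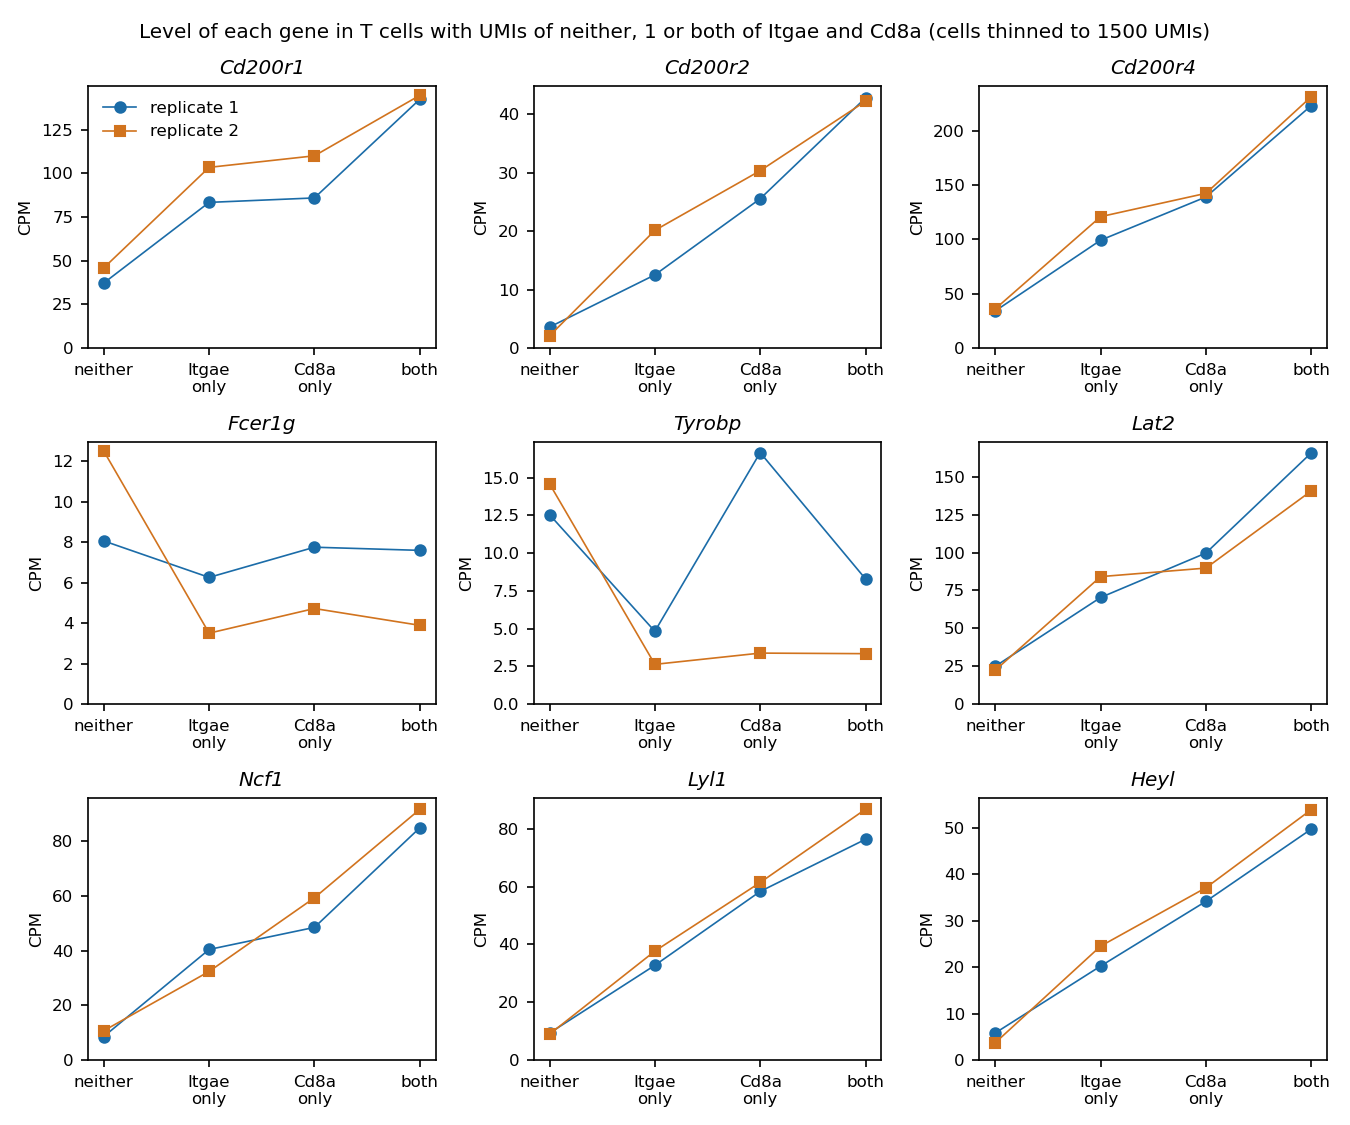
Level in CPM (linear axis from 0) of each of the 9 genes in T cells with a UMI of neither Itgae nor Cd8a, of Itgae only, of Cd8a only and of both, after thinning to 1500 UMIs; each point is 1 library and lines join the points of a library. Cd200r4 went from 34.1 to 223 CPM and from 36.0 to 231 CPM between the first and last class, while Fcer1g stayed between 3.50 and 12.5 CPM.

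The 4 classes made by Itgae and Cd8a together gave a ladder for all 7 genes. Cd200r4 stood at 34.1 CPM in cells with neither gene, 99.2 CPM with Itgae only, 139 CPM with Cd8a only and 223 CPM with both in replicate 1, and at 36.0, 121, 142 and 231 CPM in replicate 2. Cells with both genes had the highest level of each of the 7 genes in each library, and cells with neither the lowest. Ncf1 went from 8.60 to 85.0 CPM and from 10.7 to 91.7 CPM over the same ends. Lyl1 went from 9.32 to 76.3 CPM and from 8.93 to 86.7 CPM, and Heyl from 5.83 to 49.7 CPM and from 3.72 to 53.9 CPM. Cells with Cd8a only had higher values than cells with Itgae only for all 7 genes in both libraries. For Cd200r1 (85.9 against 83.3 CPM and 110 against 103 CPM) that gap was smaller than the gap between libraries. So it was for Lat2 in replicate 2 (89.7 against 84.1 CPM, with 70.3 CPM for Itgae only in replicate 1). The gap was also smaller than a gap between libraries for Cd200r4 in replicate 2 (142 against 121 CPM, with 99.2 CPM for Itgae only in replicate 1). The same held for Ncf1 in replicate 1 (48.5 against 40.5 CPM, with 59.4 CPM for Cd8a only in replicate 2). In the split by Cd8a alone 7 genes were likewise higher without overlap, an order that 26.1% of genes had, and this contrast too belonged to the rule.

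Single cells reflected the same ladder. At least 1 of the 7 genes was detected in 14.9% and 15.3% of cells with neither Itgae nor Cd8a and in 63.0% and 64.4% of cells with both. At least 2 of them were detected in 2.19% and 2.14% of the former and 28.0% and 28.2% of the latter. No thinned cell held more than 5 of the 7. Fcer1g and Tyrobp were seen together in 5 and 0 Itgae-detected cells.

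The number of Itgae UMIs in a cell gave a graded view. Cd200r4 was at 59.1, 152, 193 and 254 CPM in cells of replicate 1 with 0, 1, 2 and 3 or more Itgae UMIs, and at 55.3, 175, 204 and 231 CPM in replicate 2. Lat2 was at 42.7, 107, 154 and 188 CPM and at 34.5, 110, 126 and 152 CPM. Levels of both genes were thus higher at each step in both libraries, as were those of Ncf1, Lyl1 and Heyl, whereas Cd200r1 peaked at 2 UMIs in both libraries and Cd200r2 dipped at 2 UMIs in replicate 2. Fcer1g had 0 UMIs in the 302 cells of replicate 1 with 3 or more Itgae UMIs, which allows a share of up to 0.993% of cells, and 1 UMI in the 228 such cells of replicate 2.

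**Figure D2:**
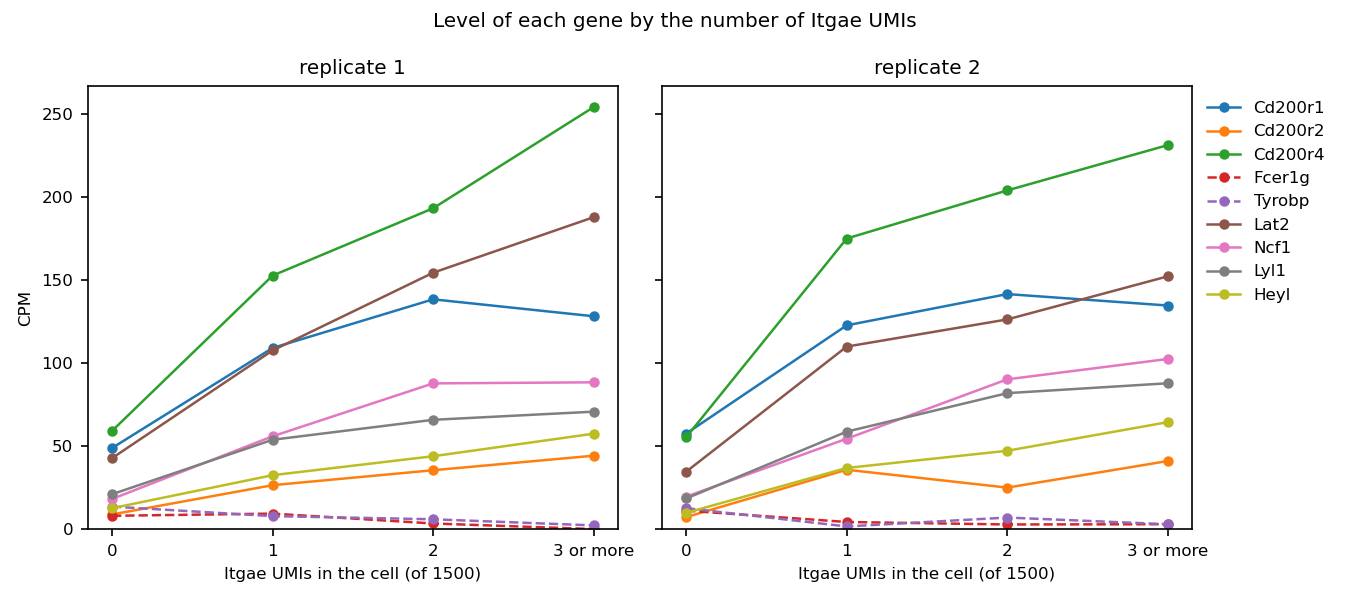
Level in CPM (linear axis from 0) of each gene against the number of Itgae UMIs in a cell of 1500 UMIs, 1 panel for each library, with solid lines for the 7 genes and dashed lines for Fcer1g and Tyrobp. Cd200r4 reached 254 and 231 CPM at 3 or more UMIs, and both dashed lines stayed under 14 CPM.

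Barcodes carrying genes of other cell types were read for the levels of the members in the same libraries. A Cd3e UMI was found in 47.4% and 38.2% of macrophage- or dendritic-marked barcodes and in 65.0% and 76.8% of neutrophil-marked ones. For basophil-marked barcodes the shares were 75.7% and 31.6%. Many thus held T cell RNA as well, and their levels are not those of pure cell types. Fcer1g was at 1180 and 1210 CPM in the 135 and 157 barcodes marked by macrophage or dendritic cell genes, at 1099 and 1825 CPM in the 37 and 19 barcodes marked by the basophil proteases Mcpt8 and Prss34, and at 1071 and 331 CPM in those marked by neutrophil genes. Tyrobp behaved alike, with 1319 and 1202 CPM in macrophage- or dendritic-marked barcodes. In Itgae-detected and in undetected T cells both adaptors lay below the level in free RNA, read from barcodes of 10 to 99 UMIs, which was 30.6 and 17.9 CPM for Fcer1g and 34.3 and 23.0 CPM for Tyrobp. Free RNA gives the make-up of the free pool and not its share in a cell. Whether levels below it are background was not tested.

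The other 7 genes differed among themselves in that comparison. Cd200r4 was at 24.7 and 25.5 CPM in macrophage- or dendritic-marked barcodes and at 69.4 and 61.4 CPM in free RNA, against 171 and 188 CPM in Itgae-detected T cells. Heyl was at 4.94 and 0 CPM in macrophage- or dendritic-marked barcodes and at 20.2 and 21.7 CPM in free RNA. Both genes were thus higher in Itgae-detected T cells than in either. Ncf1 was the reverse for phagocytes, with 222 and 242 CPM in macrophage- or dendritic-marked barcodes against 66.4 and 68.7 CPM in Itgae-detected T cells. Lat2 was highest in basophil-marked barcodes, at 360 and 456 CPM. Lyl1 was at 84.0 and 59.4 CPM in macrophage- or dendritic-marked barcodes, overlapping 58.1 and 67.7 CPM in Itgae-detected T cells. Cd200r1 was at 126 and 140 CPM in basophil-marked barcodes, overlapping 118 and 129 CPM in Itgae-detected T cells. Cd200r2 was at 4.94 and 4.25 CPM in macrophage- or dendritic-marked barcodes, below 30.2 and 33.7 CPM in Itgae-detected T cells. In Itgae-undetected T cells all 7 genes lay below their free RNA level in both libraries, although the cells with Cd8a only, which belong to that class, lay above it for each of the 7.

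**Figure D3:**
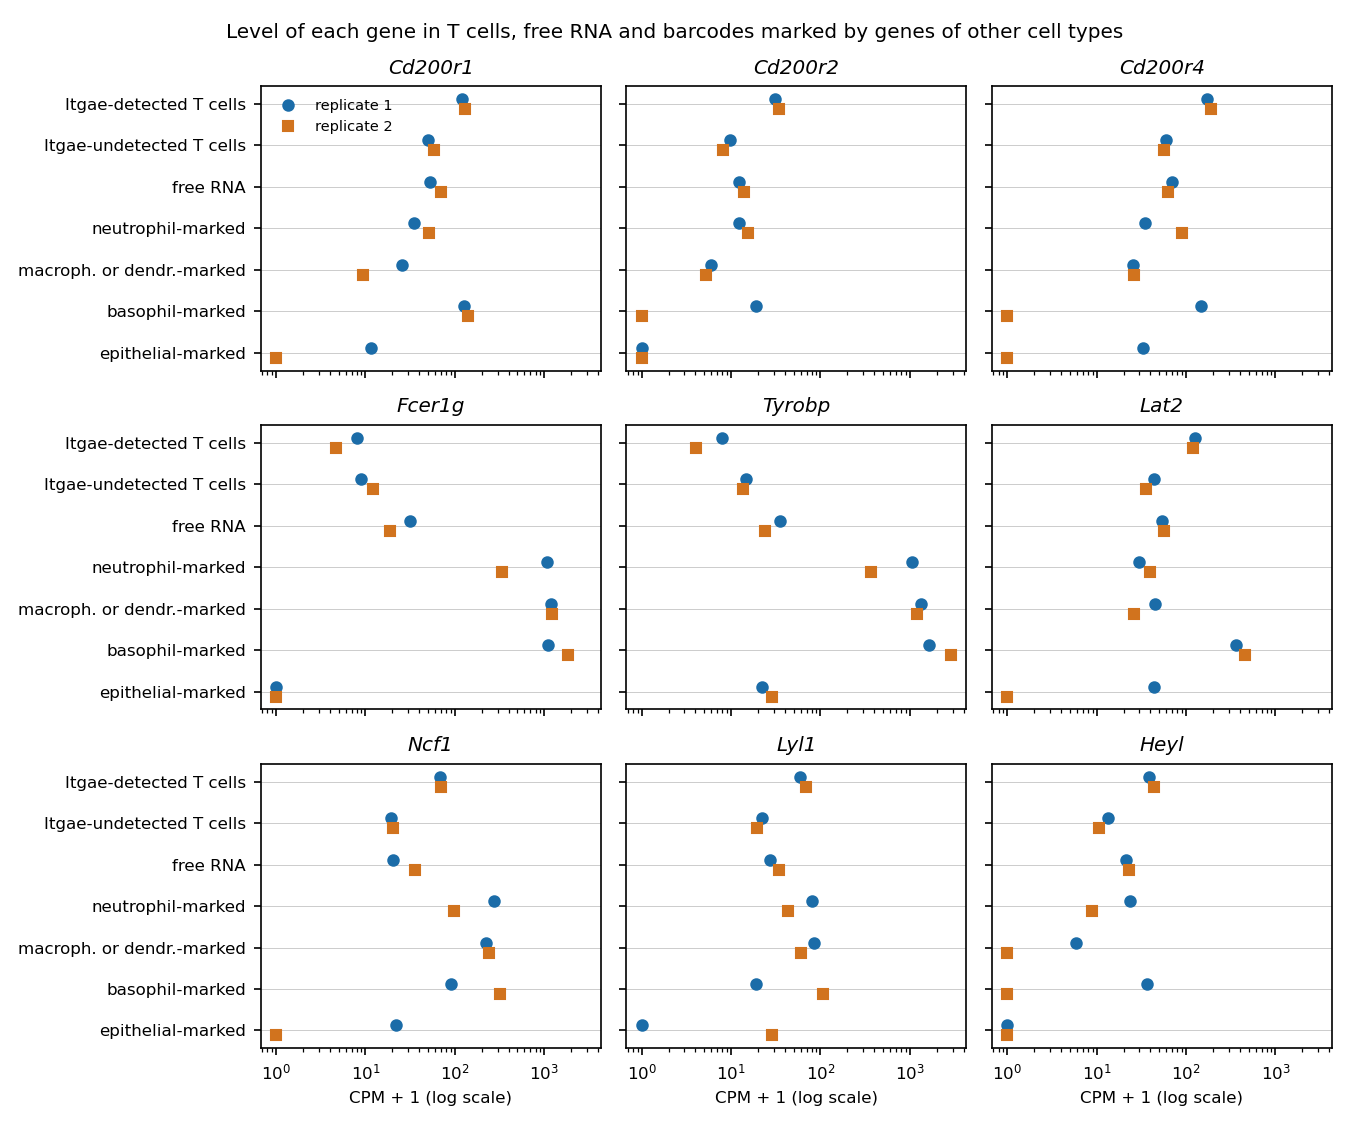
Level of each gene as CPM + 1 on a log axis in Itgae-detected and undetected T cells, free RNA and barcodes marked by genes of neutrophils, macrophages or dendritic cells, basophils and epithelium, with 1 point for each library (a point at 1 is a level of 0). Fcer1g and Tyrobp sit near or above 1000 CPM in macrophage- or dendritic-marked barcodes and near 10 CPM in T cells, while Cd200r4 and Heyl are higher in Itgae-detected T cells than in free RNA. Many of the marked barcodes also held Cd3e UMIs.

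Marker lists of other cells were measured beside these levels. The 9 neutrophil genes summed to 84.7 CPM in Itgae-detected and 84.4 CPM in undetected cells of replicate 1 and to 259 and 292 CPM in replicate 2, with 8 of 9 detected in each and S100a8 at 0 by the rule. The 11 macrophage or dendritic genes summed to 71.6 and 65.4 CPM and to 71.1 and 56.1 CPM, with 8 or 9 of 11 detected, Lyz2 and H2-Aa at 0 by the rule and C1qb at 0 in Itgae-detected cells of replicate 2. The part of either list in the levels of the members was not tested. The 10 basophil or mast genes were lower in Itgae-detected cells, at 28.0 against 66.1 CPM and 9.86 against 109 CPM, with Mcpt1 and Tpsb2 at 0 in each class. The 7 NK or innate lymphoid genes summed to 18.5 against 16.6 CPM and 22.8 against 17.8 CPM, with Ncr1 at 0 in Itgae-detected cells of replicate 1. The 6 γδ T cell genes were higher, at 535 against 394 CPM and 584 against 423 CPM, with 5 of 6 detected and Sox13 at 0, and their part in the levels of the 7 genes was not tested. The 4 erythroid genes went opposite ways in the libraries, at 11.9 CPM in Itgae-detected against 115 CPM in undetected cells of replicate 1, with Hbb-bt at 0 in the former, and at 305 against 146 CPM in replicate 2. Their part was not tested either.

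Splits by genes outside the rule allowed tests. Each compared detected with undetected cells in both libraries with edgeR's quasi-likelihood test, with p-values adjusted by Benjamini-Hochberg over all genes of the fit and 0.05 as threshold. Each fit had a term for the library, so these p-values rest on how alike the class difference was in 2 pooled libraries. That left 1 residual degree of freedom, and the estimate of spread was drawn in part from all genes. Nothing in the labels says whether the libraries came from separate animals, so the p-values do not measure spread between animals.

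In cells with Ccr9, the chemokine receptor for homing to the small intestine, 7 of the 9 genes rose, where 7.62% of all genes tested rose. Lyl1 was at 70.2 CPM in the 1653 Ccr9-detected cells and 24.6 CPM in the 11421 undetected cells of replicate 1, and at 69.0 and 25.3 CPM in the 1043 and 6382 cells of replicate 2, a log2 fold change of 1.497 ± 0.112 (SE; edgeR adjusted p = 4.5e-38). Cd200r4 was at 157 against 77.5 CPM and at 164 against 78.3 CPM, a log2 fold change of 1.05 ± 0.08. Cd200r2 was at 35.1 against 11.2 CPM and at 32.0 against 11.3 CPM, a log2 fold change of 1.60 ± 0.17. The detected and undetected values of these genes did not overlap, but how many of all genes had that order was not counted in this split. In the Itgae split 24.4% of genes were higher without overlap. Heyl (1.45), Ncf1 (1.16), Lat2 (1.15) and Cd200r1 (0.68) rose as well on the log2 scale. Fcer1g had a log2 fold change of -0.82 (edgeR adjusted p = 0.053) and Tyrobp of -0.65 (edgeR adjusted p = 0.070), neither past the threshold. Itgae was detected in 42.1% of Ccr9-detected against 22.9% of undetected cells of replicate 1 and in 48.6% against 22.8% in replicate 2. Cd8a moved with the split as well, at 61.9% against 28.3% and 56.2% against 25.1% of cells.

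The Ccr9 split was repeated within Itgae-detected cells. There 5 of the 7 genes tested rose, where 1.53% of all genes did. The log2 fold changes were 0.98 ± 0.20 for Cd200r2, 0.76 ± 0.15 for Lyl1, 0.67 ± 0.19 for Heyl, 0.46 ± 0.11 for Lat2 and 0.41 ± 0.09 for Cd200r4. Ncf1 (0.33 ± 0.15, edgeR adjusted p = 0.26) and Cd200r1 (0.18 ± 0.12, edgeR adjusted p = 0.50) did not pass. Each of these values was smaller than over all cells, a difference that was not tested, and Fcer1g and Tyrobp were too low to be tested. Within these cells Cd8a was still detected in 77.2% of Ccr9-detected against 53.2% of undetected cells of replicate 1 and in 73.2% against 57.0% in replicate 2. In cells with a UMI of both Itgae and Cd8a, a subset chosen after seeing the data with 537 and 371 Ccr9-detected and 1393 and 828 undetected cells, edgeR called 0 of the 7 genes and 0% of all genes higher, with 515 genes at an unadjusted p under 0.05. The log2 values there were 0.55 ± 0.21 for Cd200r2 (95% interval 0.13 to 0.96), 0.46 ± 0.16 for Lyl1, 0.38 ± 0.19 for Heyl, 0.10 ± 0.09 for Cd200r4 (-0.071 to 0.28), 0.099 ± 0.109 for Lat2, -0.11 ± 0.12 for Cd200r1 and -0.12 ± 0.15 for Ncf1. The calls of the Ccr9 split were thus not made in this smaller set of cells alike in Itgae and Cd8a detection.

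In cells with Tcf7, which encodes the factor TCF1 of naive and stem-like T cells, 6 of the 9 genes fell, where 2.37% of all genes tested fell. Lat2 was at 17.3 CPM in the 811 Tcf7-detected cells and 66.9 CPM in the 12263 undetected cells of replicate 1, and at 16.9 and 59.2 CPM in the 433 and 6992 cells of replicate 2, a log2 fold change of -1.92 ± 0.21 (edgeR adjusted p = 4.1e-08). Lyl1 was at 10.7 against 31.7 CPM and at 7.70 against 32.9 CPM, a log2 fold change of -1.75 ± 0.28. Cd200r4 was at 37.8 against 90.8 CPM and at 29.3 against 94.2 CPM, a log2 fold change of -1.42 ± 0.16. The classes did not overlap for these 3 genes, but how many of all genes had that order was not counted in this split. In the Itgae split 27.5% of genes were lower without overlap. Ncf1 (-1.54), Heyl (-1.28) and Cd200r1 (-0.52, edgeR adjusted p = 0.044) fell as well. Cd200r2 (-1.21, edgeR adjusted p = 0.082), Fcer1g (-1.69, edgeR adjusted p = 0.078) and Tyrobp (-0.51, edgeR adjusted p = 0.60) did not pass, with as few as 1 UMI of Cd200r2 and of Fcer1g in Tcf7-detected cells of replicate 2. An Itgae UMI was found in 11.1% of Tcf7-detected against 26.3% of undetected cells of replicate 1 and in 9.01% against 27.5% in replicate 2, and a Cd8a UMI in 14.9% against 33.7% and in 10.4% against 30.6%. Within Itgae-detected cells edgeR called none of the 7 genes tested, where of 8354 genes only 18 rose and 19 fell. The log2 values of the 7 genes ran from -1.53 (Lat2, edgeR adjusted p = 0.12) to -0.36 (Cd200r1). With DESeq2 over all cells 3 members passed, among 175 genes called.

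The split by Cd4 itself compared cells that all carried the CD4 label. Cells without a Cd4 UMI at this depth may still express Cd4, so the split cannot set the members apart from that label. The 7 genes had log2 differences between -0.03 (Lyl1) and 0.19 (Cd200r2) between the 3282 and 2000 Cd4-detected cells and the others, and none passed, while Tyrobp fell by 0.71 ± 0.20 on the log2 scale (edgeR adjusted p = 0.015). Of all genes tested 3.9% changed in either direction. The fall of Tyrobp came from replicate 1, at 6.09 against 13.8 CPM, since replicate 2 had 10.0 against 10.1 CPM, and it was not called by DESeq2 or with no replicate block and had a log2 value of 0.023 with stricter exclusion of other cell types. Cd200r4 was at 91.6 against 86.2 CPM and at 92.0 against 89.8 CPM, so its difference of 0.06 had a 95% interval from -0.08 to 0.19. The signs of these small values were not stable, since all 7 were below 0 within Itgae-detected cells. Without thinning 7 members passed, while cells with a Cd4 UMI then held an Itgae UMI in 44.7% against 30.3% and in 47.2% against 31.7% of cases, and with thinning to 1000 UMIs 0 members passed.

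**Figure D4:**
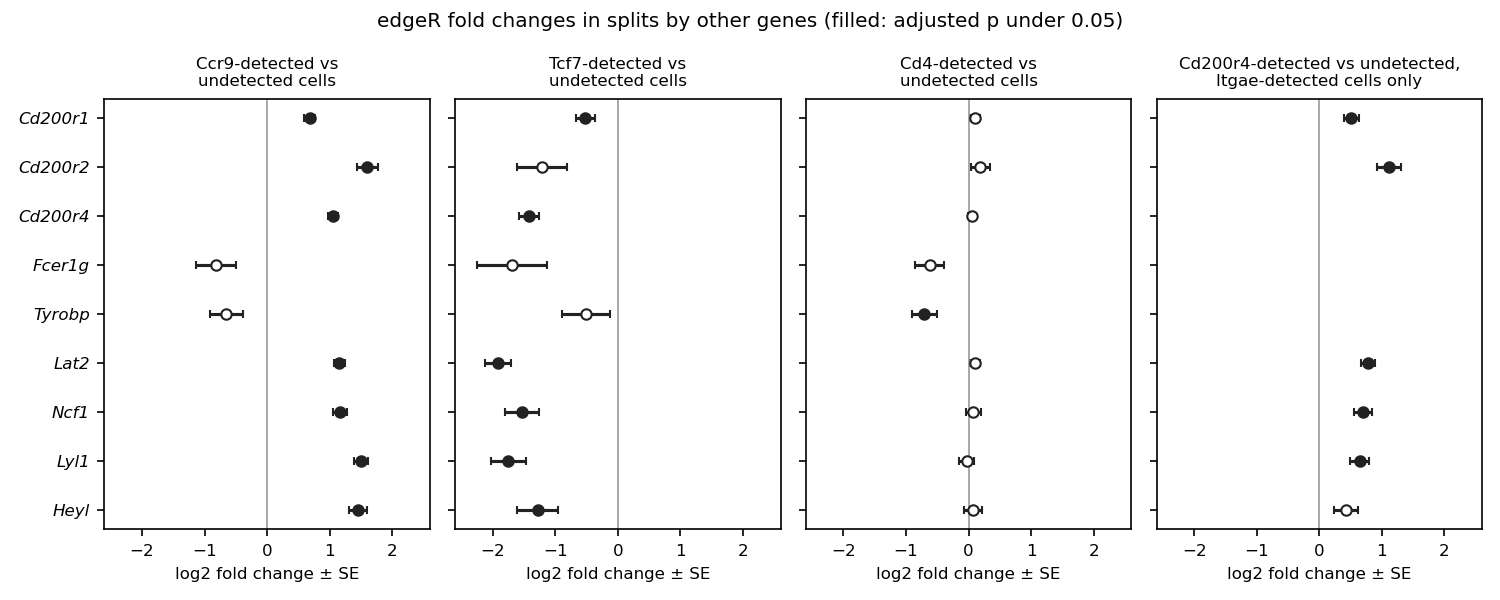
Log2 fold change ± SE from edgeR for each gene in splits by Ccr9, Tcf7 and Cd4 over all T cells and by Cd200r4 within Itgae-detected cells, with filled points for an adjusted p under 0.05 and no point where a gene was not tested. The 7 genes lie right of 0 for Ccr9, left of 0 for Tcf7 and at 0 within 0.2 for Cd4.

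A split by the member Cd200r4 was made within Itgae-detected cells, chosen after the Fcer1g split had proved too small. Cd200r4 was itself chosen with the other members on their levels by Itgae and Cd8a, and Cd8a was detected in 75.2% of Cd200r4-detected against 53.7% of undetected cells of replicate 1 and in 73.1% against 57.6% in replicate 2. Among Itgae-detected cells, 698 and 450 had a Cd200r4 UMI and 2616 and 1510 had none. Of the 6 other genes tested 5 rose, where 1.1% of all genes did. Cd200r2 was at 52.5 against 24.2 CPM and at 56.3 against 26.9 CPM, a log2 fold change of 1.11 ± 0.20 (edgeR adjusted p = 0.00016). Lat2 was at 195 against 108 CPM and at 161 against 106 CPM, a log2 fold change of 0.78 ± 0.11 (edgeR adjusted p = 2.2e-06). Ncf1 (0.70), Lyl1 (0.65) and Cd200r1 (0.51) rose too, and Heyl (0.43, edgeR adjusted p = 0.28) did not pass. These calls depended on the tool, since DESeq2 called 0 members. In cells with both Itgae and Cd8a, 2 of the 6 genes rose, where 0.204% of all genes did, namely Cd200r2 (log2 0.90 ± 0.22, edgeR adjusted p = 0.0081) and Lat2 (log2 0.56 ± 0.12, edgeR adjusted p = 0.0012). Ncf1 (0.37), Cd200r1 (0.31), Lyl1 (0.28) and Heyl (0.11) did not pass there. Among Itgae-undetected cells the same split gave larger values, with 6 of 8 genes past the threshold against 3.31% of all genes, from 1.03 ± 0.14 (Cd200r1) to 2.01 ± 0.30 (Cd200r2), while the difference from Itgae-detected cells was not tested. Cd8a was detected there in 54.1% against 21.2% and in 45.3% against 16.01% of cells. In these Itgae-undetected cells neither Fcer1g (0.64, edgeR adjusted p = 0.34) nor Tyrobp (0.29, edgeR adjusted p = 0.72) passed.

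Cells with Fcer1g were another matter. Within Itgae-detected cells only 19 and 11 had an Fcer1g UMI, edgeR called 1 of 7923 genes (0.0126%), the basophil protease gene Prss34, and 0 of the 7 members tested, with 346 genes at an unadjusted p under 0.05 and 13 genes called by DESeq2. Among Itgae-undetected cells 85 and 63 had an Fcer1g UMI, and 0.396% of all genes rose. Tyrobp was at 643 against 7.99 CPM and at 487 against 7.03 CPM, a log2 fold change of 6.14 ± 0.27 (edgeR adjusted p = 3.6e-110). Lat2 rose with it, from 41.3 to 204 CPM in replicate 1 and from 33.8 to 95.2 CPM in replicate 2, a log2 fold change of 1.93 ± 0.34. No other member passed, and Cd200r2 had 0 UMIs in these 85 and 63 cells. The basophil proteases Prss34 (3725 against 9.03 CPM and 5429 against 6.05 CPM) and Mcpt8 (1286 against 3.93 CPM and 2148 against 2.72 CPM) were high in the same cells, as were the IgE receptor gene Fcer1a and Cd200r3. Cd3e was at 1671 against 2011 CPM and at 1651 against 1873 CPM. The part of basophil transcripts or of mixed droplets in the Fcer1g and Tyrobp levels was not tested.

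Levels were also read in classes by 12 single genes, whose order differed between members. Cd200r4 was at 177 and 191 CPM in Cd8a-detected cells, followed by Itgae, Ccr9 and Cd8b1, the last at 141 and 160 CPM. Cells with Il10, a cytokine of regulatory cells, were at 39.9 and 42.1 CPM, and Tcf7-detected cells at 37.8 and 29.3 CPM. For Cd200r4 the Itgae and Cd8a classes overlapped between libraries, as did the Ccr9 and Cd8b1 classes, while the Ccr9 class (157 and 164 CPM) lay below the Itgae class without overlap. Cd200r4 was also high in cells with the interferon-induced gene Ifit3, at 133 and 156 CPM, where Cd200r2 was at 0 and 7.09 CPM. Over all cells Cd200r2 was at only 14.2 CPM in each library, so its values in this small class rest on very few UMIs. Cd200r1 stood out in cells with the γδ gene Tcrg-C1, at 86.8 and 109 CPM, where Heyl was at 6.20 and 9.46 CPM and Lyl1 at 12.4 and 18.9 CPM. Tyrobp had its highest level in cells with the chemokine gene Xcl1, at 36.6 and 21.1 CPM. These classes share cells, and no test was made between them.

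The genes that signal with the members were read in the Itgae split, from lists chosen with earlier results of these data known. Over all genes tested 10.6% were higher and 12.2% lower in Itgae-detected cells by edgeR, with a median log2 value of -0.00. Of 22 ITAM kinases and adaptors, 20 were tested, 5 rose and 4 fell, with a median of -0.01. Plcg2, a phospholipase of ITAM receptors in B and myeloid cells, was at 15.1 against 4.78 CPM and 15.7 against 3.78 CPM (log2 1.80 ± 0.20). Ubash3b, a phosphatase that restrains receptor signalling, was at 31.0 against 17.1 CPM and 33.0 against 18.1 CPM (log2 0.87 ± 0.13). Sla2, an adaptor that limits the T cell receptor, rose by 0.52 and Blnk, the B cell linker, by 1.94 on the log2 scale at low levels, 1.61 against 0.34 CPM and 2.38 against 0.73 CPM. Syk, the kinase that binds ITAMs in myeloid cells, was at 0.60 CPM and 0 CPM in Itgae-detected cells, whereas its T cell relative Zap70 was at 217 CPM in each library and did not pass.

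Of 17 receptors known to pair with Fcer1g or Tyrobp, 4 were high enough to test, and 3 fell, with a median log2 of -2.04. These were Ncr1 (log2 -4.20 ± 0.87), an activating receptor of NK cells, Cd200r3 (-2.18 ± 0.76) and Fcer1a (-1.89 ± 0.69), each under 3 CPM in every class. The other gene tested, Klrk1, was at 130 against 127 CPM and 92.3 against 122 CPM and did not pass. The median thus rests on genes of very low level. Of 6 genes of the CD200 receptor pathway, 5 were tested, 2 rose and 1 fell, with a median of 0.06. Dok1, an adaptor of the DOK family, was at 93.2 against 42.6 CPM and 85.5 against 38.4 CPM (log2 1.15 ± 0.09), and the ligand gene Cd200 was at 48.5 against 27.5 CPM and 59.9 against 25.3 CPM (log2 1.00 ± 0.10). Dok2, the DOK adaptor through which CD200R1 chiefly signals, fell from 206 to 140 CPM and from 199 to 121 CPM (log2 -0.62 ± 0.06).

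Of 7 NADPH oxidase genes, 5 were tested, 1 rose and 3 fell, with a median log2 of -0.14. Cybb, the membrane subunit gp91phox, was at 1.81 against 0.82 CPM and 5.79 against 2.20 CPM (log2 1.30 ± 0.44), while Ncf4, p40phox, fell from 85.8 to 67.3 CPM and from 89.3 to 66.4 CPM (log2 -0.37 ± 0.08). Rac2 (log2 -0.16) and Cyba (log2 -0.14) fell by small amounts. Of 11 partners and relatives of Lyl1, 8 were tested and 3 fell, with a median of -0.12, namely the inhibitor gene Id3 (log2 -1.25 ± 0.23), Gata3 (-0.24 ± 0.08) and Id2 (-0.09 ± 0.03). Of 13 Notch pathway genes, 7 were tested, 1 rose and 1 fell, with a median of -0.11. Dtx1, a Notch target, was at 147 against 89.7 CPM and 168 against 105 CPM (log2 0.71 ± 0.07), and Nrarp, another, was at 5.44 against 9.15 CPM and 6.13 against 9.15 CPM (log2 -0.67 ± 0.23).

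Patterns most like that of the members were sought over 16 points, the 8 classes by Itgae, Cd8a and Ccr9 in 2 libraries, among 5265 genes. The likeness was Pearson's r of log2(CPM + 10) with the mean of the 9 scaled members, given as a description, since the points share libraries and depth. The 10 closest genes were 2900026A02Rik (0.98), Gzmb (0.97), Slc16a11 (0.97), Ssbp3 (0.96), Gzma (0.96), Cd7 (0.96), Cd160 (0.96), Cela1 (0.96), Dok1 (0.96) and Dapk2 (0.95). With the mean of the 7 members in place of the 9, 5 of these, Gzmb, Gzma, Cd7, Cd160 and Dapk2, were among the 10 closest. Gzma and Gzmb encode granzymes, proteases of killer cell granules, Cd7 and Cd160 encode surface receptors of intraepithelial lymphocytes, and Dapk2 encodes a kinase. Gzmb ranged from 2119 to 12750 CPM over the points, Cd160 from 142 to 819 CPM and Dapk2 from 70.7 to 479 CPM. The same measure was -0.47 for Fcer1g and -0.20 for Tyrobp, although each is part of the mean and the classes use the genes that chose the members.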

How the data were processed

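Single-cell 3′ RNA libraries were made from sorted T cells pooled over 5 tissue compartments, as 2 expression and 2 hashtag libraries. Per the submitters' processing notes the authors used Cell Ranger 3.1.0 and mm10, and the deposited values are raw UMI counts per gene and barcode over all barcodes, with no normalization. Cells had at least 1000 UMIs, 500 genes and at most 10% mitochondrial UMIs, at least 1 Cd3e, Cd3d or Cd3g UMI and no S100a8, Lyz2 or H2-Aa UMI, and were thinned to 1500 UMIs (seed 20). No doublet caller was run, and the 5% of cells with most UMIs were left out as an alternative. Library totals were 89427990 and 108082997 UMIs.

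Splits were tested with edgeR 4.0.16 in R 4.3.3 on 4 summed profiles, 1 for each class of each library. Settings were TMM, filterByExpr and a term for the library as replicate block, because the 2 classes of a split come from the same libraries, and the split gene was left out. The procedure was tested on simulated data. Alternatives were RLE factors, no filter, DESeq2 1.42.0, no replicate block, no thinning, 1000 UMIs, a second thinning, single libraries, stricter exclusion of other cells and subsets by Itgae. A further set of alternatives (S100a8, Lyz2 and H2-Aa cells kept, no shared barcodes, cells with both Itgae and Cd8a) and the Cd200r4 split were chosen after seeing the data. Shares carry exact Clopper-Pearson 95% intervals. Tables were handled with Python 3.11.15 (pandas 2.3.3, numpy 2.4.6, scipy 1.17.1). The members, gene lists and splits were chosen with earlier results of these data known. All 9 members are named, with up to 4 genes past the threshold from each list and the 10 most alike genes. Genes given outside this rule were chosen after their values were seen.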

Additional observations from a re-analysis of the deposited data

How the results depend on the processing

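The 7 genes other than Fcer1g and Tyrobp kept their direction in all 91 alternative values of the Itgae split and of the Cd8a split, in all 98 of the Tcf7 split, in all 90 of the Cd200r4 split and in 103 of 105 of the Ccr9 split, single libraries included. Their log2 values lay between 1.13 and 2.86 (Itgae), 1.25 and 3.31 (Cd8a), -0.12 and 1.84 (Ccr9), -3.28 and -0.10 (Tcf7) and 0.11 and 2.01 (Cd200r4). In the last 3 of these splits 7, 12 and 16 values were no longer past the threshold. The cause of the changes below was not tested.

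Counts of genes called moved with the setting. They were 2403 (Itgae), 3325 (Cd8a), 1824 (Ccr9), 520 (Tcf7), 411 (Cd4), 335 (Cd200r4) and 1 (Fcer1g). In the same order they were 553, 899, 413, 175, 23, 54 and 13 with DESeq2, and 964, 1726, 623, 201, 0, 158 and 5 with no replicate block. With stricter exclusion of other cell types they were 1223, 1963, 786, 246, 115, 223 and 0, with 124 genes at an unadjusted p under 0.05 in the last, and with thinning to 1000 UMIs 1398, 2005, 1038 and 284 for the first 4 splits, 146 for Cd200r4 and 0 for Fcer1g (262 unadjusted). The edgeR count of 0 for Cd4 with no replicate block stood beside 551 genes at an unadjusted p under 0.05. With no thinning they were 5462, 5865, 5730 and 2355 for the first 4, 390 for Cd4, 2965 for Cd200r4 and 90 for Fcer1g. Within Itgae-detected cells 466 (Ccr9), 37 (Tcf7) and 68 (Cd4) genes were called, within undetected cells 763 (Cd200r4) and 50 (Fcer1g), and in cells with both Itgae and Cd8a 18 (Ccr9) and 55 (Cd200r4). With S100a8, Lyz2 and H2-Aa cells kept they were 1028 (Tcf7), 888 (Cd4), 543 (Cd200r4) and 43 (Fcer1g). The Fcer1g split also gave 5 genes with no low-count filter and 21 with the second thinning.

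Of the members, DESeq2 called 3 in the Tcf7 split, 0 in the Cd4 split and 0 in the Cd200r4 split, against 6, 1 and 5. With no replicate block 0 passed in the Cd4 and 3 in the Cd200r4 split, with stricter exclusion 0 and 2, and with 1000 UMIs 0 and 3. In the Cd4 split 7 passed with no thinning, 2 with S100a8, Lyz2 and H2-Aa cells kept, 0 without the 5% of cells with most UMIs and 0 within Itgae-detected cells, where 0 passed in the Tcf7 split too. In cells with both Itgae and Cd8a 0 passed in the Ccr9 split, against 7, and 2 in the Cd200r4 split.

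Log2 values with the other sign were -0.11 (Cd200r1) and -0.12 (Ncf1) in the Ccr9 split of cells with both Itgae and Cd8a. In the Cd4 split they were, within Itgae-detected cells, -0.13 (Cd200r1), -0.097 (Cd200r2), -0.19 (Cd200r4), -0.049 (Lat2), -0.13 (Ncf1) and -0.15 (Heyl). The others there were 0.26 (Lyl1) with no thinning, -0.17 (Cd200r2) and 0.10 (Lyl1) with the second thinning, 0.43 (Fcer1g), 0.023 (Tyrobp) and -0.28 (Heyl) with stricter exclusion, -0.23 (Cd200r2) and -0.0095 (Ncf1) with 1000 UMIs, -0.063 (Ncf1) with S100a8, Lyz2 and H2-Aa cells kept, and -0.22 (Cd200r2) and 0.058 (Lyl1) in replicate 2 alone. In the Fcer1g split they were -0.61 (Cd200r2) and 0.17 (Lat2) with no thinning, 0.60 (Cd200r1) with stricter exclusion and 0.051 (Ncf1) with 1000 UMIs. Within Itgae-undetected cells they were 0.25 (Cd200r1), -8.55 (Cd200r2, with 0 UMIs in the detected cells), 0.54 (Cd200r4), 1.93 (Lat2), 1.02 (Ncf1) and 1.23 (Lyl1). In replicate 2 alone they were 0.50 (Cd200r1) and 0.52 (Heyl), and in replicate 1 alone 0.035 (Cd200r4) and 0.75 (Lat2). Tyrobp turned to 0.24 with stricter exclusion and 0.18 in replicate 1 alone in the Cd8a split, and to 0.11 in replicate 2 alone in the Tcf7 split. Fcer1g and Tyrobp rest on 35 and 34 UMIs in Itgae-detected cells of replicate 1 and 11 and 9 in replicate 2, which limits every statement on them. Leaving out the 599 shared barcodes moved no count of calls by more than 1.5 times.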
